A study of Mus musculus with 6 samples.

Results

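The genes described here encode the contractile machinery of smooth muscle: its actin and myosin filaments, the proteins that regulate and anchor them, the transcription factors that drive their expression, and the channels and the receptor that set the calcium signal. They were chosen by name for their function, with earlier results of these data known, and all 35 of them stand in the deposited tables among 21936 genes. RNA was measured in whole uterus of female mice aged 6 to 8 weeks on gestational day 4, with the day of the vaginal plug as day 1. By label, 3 of the 6 libraries are Mettl3 f/f and the other 3 are d/d. By the usual notation f/f is a floxed allele and d/d its deleted form. For the Cre driver, the cells in which it acts and the deleted exons, no statement was given in the sources used here. The labels do not say that replicates were separate animals, so p-values rest on the spread between libraries, which may be technical. Mettl3 itself, which encodes the catalytic subunit of the enzyme that writes N6-methyladenosine on RNA, read 30.3, 29.8 and 26.3 FPKM across the f/f libraries against 42.9, 30.1 and 46.5 across the d/d libraries, always in the order of replicates 1 to 3. The level of Mettl3 over the whole gene was not lower in d/d (limma adjusted p = 0.202) and does not check the genotype labels. Wherever d/d is written below, the labelled group is meant.

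The wall of the uterus is a lining epithelium and a stroma inside the myometrium, a coat of smooth muscle that also surrounds the larger blood vessels in another form. Smooth muscle contracts when calcium enters through voltage-gated channels, binds calmodulin and activates myosin light chain kinase, so that myosin pulls on actin filaments tied to dense bodies and adhesion plaques. Serum response factor and its partner myocardin switch on most of these genes, and in pregnancy the myometrium is kept quiet until oxytocin receptor and other contraction-associated proteins accumulate near birth.

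The depth of the libraries is unknown, because the files hold FPKM (fragments scaled by gene length and library size, a unit inferred from the values and the tools) and no read numbers. Each library listed 15965 to 16345 genes above 0, and its total was 534944 to 625491 FPKM. Genes with at least 1 FPKM in at least 3 libraries were tested, which left 12979 genes and 33 of the 35 muscle genes. The test was limma on log2(FPKM + 1) over all of these genes, and a gene was called at a Benjamini-Hochberg adjusted p under 0.05. In simulated data the false share of such calls was well above that threshold, so all calls below are less sure than it states. Fold changes on the log2 scale below are d/d minus f/f on that scale and understate the change of genes with low values. Over all genes tested, 7.30% were called, 3.81% lower and 3.49% higher in d/d.

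Transcripts of the smooth muscle genes were present in every library, and their share of the total varied widely within each genotype. The 35 genes together made up 1.74%, 2.54% and 1.36% of the total FPKM in f/f replicates 1, 2 and 3, and 0.702%, 0.942% and 1.95% in d/d replicates 1, 2 and 3. The genotypes overlapped through d/d replicate 3, while d/d replicates 1 and 2 lay below all f/f libraries. Relative to the f/f mean of each gene, the median over the 33 tested genes was 0.01, 0.43 and -0.41 on the log2 scale in f/f replicates 1, 2 and 3, and -1.03, -0.53 and 0.17 in d/d replicates 1, 2 and 3. The same medians over all genes tested lay between -0.005 and 0.007, so the scaled values of the libraries did not shift as a whole. Because FPKM is scaled to library size, this cannot show whether total RNA or the makeup of the tissue differed. The median SD of a tested muscle gene was 0.42 in f/f and 0.67 in d/d, against 0.13 and 0.30 over all genes tested. In bulk tissue, fewer muscle cells and less muscle RNA per cell cannot be told apart.

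The members followed one another from library to library. Among f/f libraries, replicate 2 was the highest for 31 of 33 tested members and replicate 3 the lowest for 32, where 31.1% and 36.8% of all genes tested had these extremes. Among d/d libraries, replicate 3 was the highest for 29 and replicate 1 the lowest for 25, where 38.6% and 30.1% of all genes tested had them. In d/d replicate 1, 30 of the 33 were below the lowest f/f library. That held for 20 in d/d replicate 2 and for 7 in d/d replicate 3, in which 8 were above the highest f/f library. How many of all genes tested lay outside the f/f range in each d/d library was not counted. All genes also spread more widely in d/d, so these counts are description only.

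**Figure D1:**
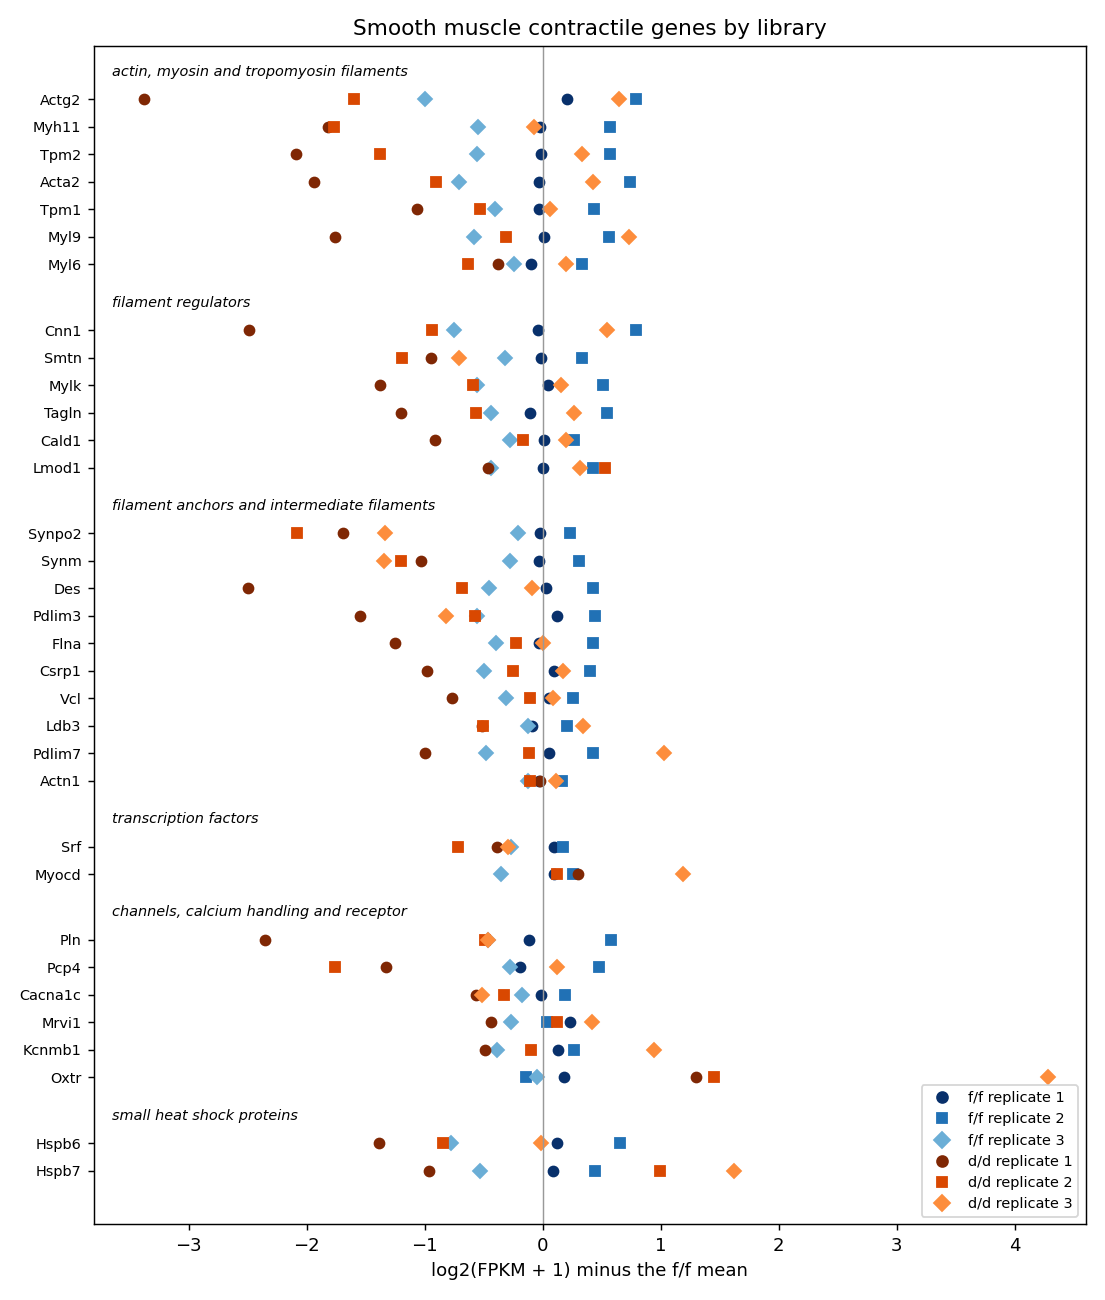
Each point is a library and each row a tested smooth muscle gene, grouped by role, with the log2(FPKM + 1) value minus the f/f mean of that gene on the horizontal axis. For most rows d/d replicate 1 lies farthest to the left and d/d replicate 3 among the f/f libraries, while Synpo2 and Synm have all 3 d/d libraries to the left of the f/f libraries and Oxtr has all 3 to the right.

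Against this spread, 3 of 33 tested members (9.09%) were lower in d/d and 0 were higher, beside 3.81% and 3.49% of all genes. At an unadjusted p under 0.05 the count was 7 of 33 (21.2%), 6 lower and 1 higher, beside 26.7% of all genes. For 8 of 33 (24.2%) no d/d value fell among the f/f values, beside 35.9% of all genes, and both shares were thus under the background. Of these, 7 were lower (21.2%, beside 17.8% of all genes) and 1 was higher. The median log2 fold change was -0.49, with 27 below 0 and 6 above, where the median over all genes tested was 0.02. The genes that were lower were Synpo2, Synm and Smtn, and with sample weights per genotype, which allow for the wider spread in d/d, only Synpo2 was called. With f/f replicate 1, 2 or 3 left out no member was called, and over all genes these fits called 0, 30 and 111 of 12979. Without d/d replicate 3, in which muscle genes were high, 6 members were called, 5 lower and 1 higher, beside 1005 of all genes, 479 lower and 526 higher.

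The transcripts of the filament proteins were abundant, and of the 7 genes none passed, also not at an unadjusted p under 0.05. Acta2, the vascular and general smooth muscle alpha-actin gene (chromosome 19, 34241090 to 34255590, GRCm38), read 1243, 2115 and 777 FPKM across the f/f libraries against 330, 679 and 1704 across the d/d libraries. The d/d values thus reached from below the lowest to above the middle f/f library, and the log2 fold change of -0.80 had a 95% interval from -2.38 to 0.77. Actg2, the gamma-actin gene of visceral muscle (chromosome 6, 83512905 to 83536265), read 491, 738 and 213 FPKM across the f/f libraries against 40.0, 140 and 669 across the d/d libraries, a range of the latter from far under to near the top of the f/f values. Myh11, the smooth muscle myosin heavy chain gene (chromosome 16, 14194535 to 14291372), read 252, 383 and 175 FPKM across the f/f libraries against 72.2, 74.8 and 245 across the d/d libraries. Here d/d replicates 1 and 2 were low together and d/d replicate 3 lay within the f/f range.

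The log2 fold change of Myh11 was -1.22 (95% interval -2.51 to 0.07, limma adjusted p = 0.210). It was -1.79 without d/d replicate 3, where it passed (adjusted p = 0.0433). The tropomyosin genes Tpm1 and Tpm2, whose products lie along the actin filament, had values of -0.51 and -1.04, and the myosin light chain genes Myl9 and Myl6 had -0.44 and -0.27, each with an interval that included 0. The balance of the actin transcripts in RNA of whole tissue also differed between libraries, and proteins were not measured. The ratio of Actg2 to Acta2 levels in FPKM was 0.395, 0.349 and 0.274 in f/f replicates 1, 2 and 3 and 0.121, 0.206 and 0.393 in d/d replicates 1, 2 and 3. It was lowest in d/d replicate 1, the library with the lowest members, and d/d replicate 3 was level with f/f replicate 1.

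**Figure D2:**
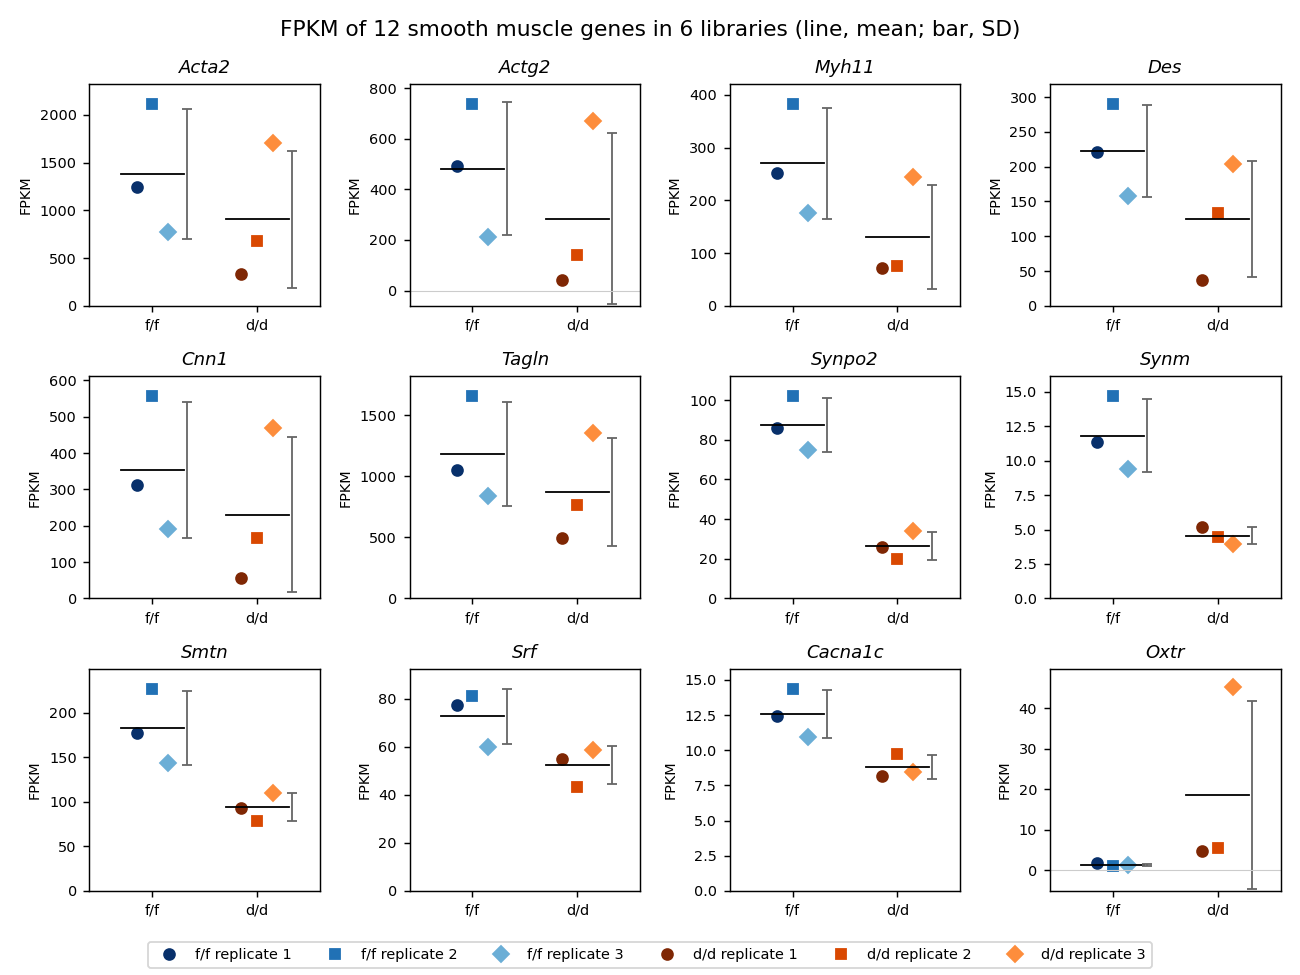
FPKM of 12 smooth muscle genes, with 1 point per library, a line at the mean and a bar of 1 SD for each genotype of 3 libraries. The 6 marker genes of muscle, Acta2 to Tagln, overlap between genotypes, whereas Synpo2, Synm, Smtn, Srf, Cacna1c and Oxtr do not.

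Among the 6 genes that regulate the filaments, Smtn was lower and the others did not pass. Smtn encodes smoothelin, an actin-binding protein of contractile smooth muscle (chromosome 11, 3517523 to 3540612). It read 178, 227 and 144 FPKM across the f/f libraries against 92.8, 78.4 and 110 across the d/d libraries. All d/d values were below all f/f values. The means were 183 ± 41.6 and 93.7 ± 15.8 (SD, n = 3 each), 1.95-fold lower in d/d, and the log2 difference was -0.95 (SE 0.21, limma adjusted p = 0.0499, exact permutation p = 0.1, the smallest that 3 against 3 libraries allow). The call lay at the threshold and was lost in 11 of 14 alternatives, with adjusted p up to 0.180. Of the 50-base stretches of its longest transcript, 13.2% also stand in transcripts of other annotated genes, led by Gm11946.

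Cnn1, the gene of calponin, which slows the myosin motor, read 313, 556 and 190 FPKM across the f/f libraries against 56.4, 167 and 468 across the d/d libraries. Tagln, which encodes the actin-bundling protein transgelin, read 1051, 1657 and 836 FPKM across the f/f libraries against 492, 766 and 1359 across the d/d libraries. Both overlapped between genotypes and had the library order of Acta2. Mylk, the myosin light chain kinase gene, and Cald1, which encodes caldesmon, had log2 fold changes of -0.60 and -0.30. Lmod1, which encodes a nucleator of actin filaments, was among the genes with a positive value, 0.13 (95% interval -0.67 to 0.92). The value of Tagln is uncertain, because 48.3% of the 50-base stretches of its longest transcript also stand in Gm48529 or Pcsk7.

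The lowest adjusted p-values lay among the 10 genes of filament anchors and intermediate filaments, of which 2 were lower. Synpo2 encodes synaptopodin 2, an actin-binding protein of dense bodies and Z-discs (chromosome 3, 123076519 to 123236149). It read 85.7, 102 and 74.8 FPKM across the f/f libraries against 26.2, 19.8 and 33.7 across the d/d libraries. The highest d/d library was thus under the lowest f/f library by a wide margin. The means were 87.5 ± 13.6 and 26.6 ± 6.99 (n = 3 each), 3.29-fold lower, and the log2 difference was -1.70 (SE 0.22, limma adjusted p = 0.0169, exact permutation p = 0.1). It passed in 10 of 14 alternatives. It did not pass once f/f replicate 1, 2 or 3 was left out (adjusted p = 0.104, 0.0994 and 0.0639) or with the replicate number as a block (adjusted p = 0.0720).

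Synm encodes synemin, an intermediate filament protein that pairs with desmin (chromosome 7, 67730160 to 67759742). It read 11.4, 14.7 and 9.43 FPKM across the f/f libraries against 5.21, 4.49 and 3.97 across the d/d libraries. The genotypes did not overlap, and here d/d replicate 3 was the lowest library instead of the highest. The log2 fold change was -1.19 (SE 0.20, 2.60-fold lower by the means, limma adjusted p = 0.0258, exact permutation p = 0.1). It passed in 9 of 14 alternatives and not once f/f replicate 1, 2 or 3 was left out (adjusted p = 0.129, 0.118 and 0.0725), with the replicate block (0.0765) or with sample weights per genotype (0.0564). The whole of Synm lies within a region that Ttc23 covers on the other strand (29583 bp), and the use of strand is not stated.

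Des, the gene of desmin, the main intermediate filament protein of muscle, read 221, 290 and 158 FPKM across the f/f libraries against 37.4, 134 and 204 across the d/d libraries. Its d/d values overlapped the f/f range only through replicate 3. Pdlim3, a gene of a Z-disc protein that binds alpha-actinin, read 199, 249 and 124 FPKM across the f/f libraries against 62.0, 123 and 104 across the d/d libraries, where d/d replicate 2 and f/f replicate 3 all but met (log2 fold change -0.98, limma adjusted p = 0.136). Actn1, the alpha-actinin 1 gene, had the smallest SE of the 33 tested members. Its mean was 120 ± 12.5 FPKM over the f/f and 119 ± 9.42 over the d/d libraries (SD, n = 3 each). The difference on the log2 scale was -0.01, with a 95% interval from -0.32 to 0.31. The filamin A gene Flna, the vinculin gene Vcl, Csrp1, Ldb3 and Pdlim7 had log2 fold changes between -0.49 and -0.03 that did not pass. Of Vcl, 39.2% of the 50-base stretches also stand in transcripts of Ap3m1, with which it overlaps on the other strand.

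Neither of the transcription factor genes passed, and 1 of them had an unadjusted p under 0.05. Srf, the gene of serum response factor (chromosome 17, 46548329 to 46556175), read 77.3, 81.2 and 59.8 FPKM across the f/f libraries against 55.0, 43.4 and 58.6 across the d/d libraries. All d/d values were lower, the nearest by little, and the log2 fold change was -0.47 (95% interval -0.89 to -0.04, limma adjusted p = 0.158). Myocd, the gene of myocardin, was near 1 FPKM. It read 0.949, 1.18 and 0.426 FPKM across the f/f libraries against 1.25, 0.980 and 3.17 across the d/d libraries, and the log2 fold change of 0.54 did not pass (adjusted p = 0.355).

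The promoters of the members were searched for the CArG box, the site that serum response factor binds. In it CC and GG flank a core of 6 bases of A or T. The search covered 250 bases before to 50 after each RefSeq transcription start (build GRCm38.p6). The motif reads as a CArG box on either strand. Of 31 members with an entry, 5 held an exact match (16.1%), against 1.81% of 27025 genes in the table. With 1 G or C allowed in the core, 11 members held a match (35.5%), against 11.3% of all genes. The members were picked as smooth muscle genes, most of which serum response factor switches on, and Srf is among them. Shares above those of all genes thus follow from the choice of the list. Whether a match goes with the shared movement across libraries was not tested. The exact matches were in Srf, Myl9, Myl6, Vcl and Ldb3. Actg2, Tagln, Myh11 and Myocd had no entry. The 250 bases before the start are shown for 3 genes with an exact match, for Acta2 with its pair of near matches, and for the anchor genes that were lower and Oxtr. Capitals mark exact and near matches, and all else is in lower case.
Srf, chr17:46556163-46556412, minus strand: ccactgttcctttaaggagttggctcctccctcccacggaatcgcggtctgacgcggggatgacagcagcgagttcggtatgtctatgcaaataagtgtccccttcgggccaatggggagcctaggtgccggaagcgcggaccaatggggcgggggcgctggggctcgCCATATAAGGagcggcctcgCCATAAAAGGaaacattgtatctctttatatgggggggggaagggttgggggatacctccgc
Myl9, chr2:156775214-156775463, plus strand: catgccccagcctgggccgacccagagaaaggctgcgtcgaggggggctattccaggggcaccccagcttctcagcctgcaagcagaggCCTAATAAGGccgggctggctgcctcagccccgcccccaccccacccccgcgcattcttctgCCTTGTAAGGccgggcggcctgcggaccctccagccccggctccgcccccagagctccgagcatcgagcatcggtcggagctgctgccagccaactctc
Vcl, chr14:20929148-20929397, plus strand: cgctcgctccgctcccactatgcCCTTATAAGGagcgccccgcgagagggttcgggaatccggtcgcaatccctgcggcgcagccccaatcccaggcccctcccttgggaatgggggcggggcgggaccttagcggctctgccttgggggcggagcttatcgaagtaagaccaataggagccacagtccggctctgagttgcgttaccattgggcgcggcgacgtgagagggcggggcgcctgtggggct
Acta2, chr19:34255374-34255623, minus strand: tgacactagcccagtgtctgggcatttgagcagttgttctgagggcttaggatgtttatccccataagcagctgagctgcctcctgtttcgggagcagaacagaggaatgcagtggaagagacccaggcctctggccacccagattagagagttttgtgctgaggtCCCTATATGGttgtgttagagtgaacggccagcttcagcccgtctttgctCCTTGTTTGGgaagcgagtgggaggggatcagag
Synpo2, chr3:123236150-123236399, minus strand: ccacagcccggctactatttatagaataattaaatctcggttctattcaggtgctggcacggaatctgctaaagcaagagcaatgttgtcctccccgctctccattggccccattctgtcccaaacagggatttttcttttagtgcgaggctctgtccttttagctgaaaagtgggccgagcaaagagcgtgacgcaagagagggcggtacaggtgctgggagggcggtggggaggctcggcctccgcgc
Synm, chr7:67759743-67759992, minus strand: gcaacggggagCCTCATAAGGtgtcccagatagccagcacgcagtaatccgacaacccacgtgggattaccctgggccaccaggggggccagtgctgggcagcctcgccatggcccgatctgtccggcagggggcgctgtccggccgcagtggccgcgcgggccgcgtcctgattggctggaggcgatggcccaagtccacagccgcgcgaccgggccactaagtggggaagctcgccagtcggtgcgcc
Oxtr, chr6:112489826-112490075, minus strand: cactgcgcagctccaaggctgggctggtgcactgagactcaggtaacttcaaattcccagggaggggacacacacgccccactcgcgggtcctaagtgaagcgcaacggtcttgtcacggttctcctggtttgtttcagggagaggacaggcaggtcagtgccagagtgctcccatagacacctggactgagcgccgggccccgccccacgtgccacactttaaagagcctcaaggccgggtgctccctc

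In Srf, the exact matches began 82 and 62 bases before the start, so the gene holds the motif that its own product binds. The match of Myl9 began 161 bases before the start, with a near match at 99, and that of Vcl 227 bases before it. Near matches in Acta2 began at 84 and 34 bases. Synpo2 and Oxtr held neither kind in the whole window, and Synm held a near match 239 bases before its start. Of the genes with an exact match, Srf had the log2 fold change -0.47, Myl9 -0.44, Myl6 -0.27, Vcl -0.26 and Ldb3 -0.23, and none of them passed. A match describes the letters of the window and does not show binding.

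Among the 8 channel, calcium and receptor genes, 6 were tested, none passed and 2 had an unadjusted p under 0.05. Oxtr had the largest difference and the opposite sign to most members. Oxtr encodes the oxytocin receptor, which drives contraction of the myometrium in labour (chromosome 6, 112473683 to 112489943). It read 1.70, 1.15 and 1.30 FPKM across the f/f libraries against 4.84, 5.49 and 45.2 across the d/d libraries. Every d/d value was above every f/f value, and d/d replicate 3 stood far above the other d/d libraries. The ratio of the means was 13.4, and the log2 fold change of 2.34 (SE 0.79) did not pass with all libraries (limma adjusted p = 0.121, exact permutation p = 0.1). It passed at 1.38 once d/d replicate 3 was left out (adjusted p = 0.0248). The f/f values of Oxtr lay near the filter of 1 FPKM, so the ratio is uncertain. With 0.1 or 5 FPKM added before the log in place of 1, the log2 fold change was 2.88 or 1.44 and did not pass.

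Cacna1c, the gene of the L-type calcium channel through which calcium enters smooth muscle, read 12.4, 14.4 and 11.0 FPKM across the f/f libraries against 8.14, 9.75 and 8.45 across the d/d libraries. The genotypes did not overlap, but the log2 fold change of -0.47 (95% interval -0.84 to -0.10) did not pass (limma adjusted p = 0.114). Pln, which encodes phospholamban, a brake on the calcium pump of the sarcoplasmic reticulum, read 14.6, 24.3 and 11.3 FPKM across the f/f libraries against 2.30, 11.0 and 11.2 across the d/d libraries. The genotypes of Pln all but touched (adjusted p = 0.270), and 60.3% of the 50-base stretches of its longest transcript also stand in Gm47644 or Cep85l, so its level is uncertain. Pcp4, which encodes a small calmodulin-binding protein, was among the most abundant members and read 1283, 2042 and 1211 FPKM across the f/f libraries against 585, 434 and 1599 across the d/d libraries. Its d/d replicates 1 and 2 lay under all f/f libraries and d/d replicate 3 among them. It passed without d/d replicate 3 (log2 fold change -1.54, adjusted p = 0.0442) and not with it (-0.99, adjusted p = 0.271), and 33.1% of its 50-base stretches are shared with Igsf5.

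Of the potassium channel that damps contraction, the regulatory subunit gene Kcnmb1 was at 4.32 to 7.36 FPKM in f/f and at 3.98 to 12.4 in d/d. The pore gene Kcnma1 was under 1 FPKM in all 6 libraries, at 0.482 to 0.829 in f/f and at 0.102 to 0.952 in d/d, and was not tested. Ryr2, the gene of a calcium release channel, was at 0.209 to 0.357 and 0.0631 to 0.348 FPKM and was likewise not tested. Mrvi1, which encodes a partner of the inositol trisphosphate receptor, was at 26.4 to 37.9 FPKM in f/f and at 23.4 to 43.2 in d/d, with a log2 fold change of 0.04. The small heat shock protein genes differed from each other in sign. Hspb6 read 22.8, 33.3 and 11.8 FPKM across the f/f libraries against 7.36, 11.2 and 20.6 across the d/d libraries, while Hspb7 was at 8.76, 11.5 and 5.37 and at 3.72, 17.4 and 27.2. Neither passed (limma adjusted p = 0.356 and 0.640), also not at an unadjusted p under 0.05, and in Hspb7 d/d replicates 2 and 3 were above all f/f libraries.

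In d/d replicate 3 the members parted. There Acta2, Actg2, Cnn1 and Tagln stood at 0.42, 0.65, 0.54 and 0.26 above their f/f means on the log2 scale. Myh11 and Des, which are also marker genes of muscle, stood near theirs at -0.07 and -0.09. In the same library Synm stood at -1.35, Synpo2 at -1.34, Pdlim3 at -0.81, Smtn at -0.71, Cacna1c at -0.51, Pln at -0.47 and Srf at -0.29, each below its lowest f/f library. These 7 genes are the members whose d/d values all lay below the f/f values, so their place in this library follows from that choice and supports nothing further. Markers of pericytes were low there as well, with a median of -1.05 over 8 genes, and their part in these values was not tested. In d/d replicate 1, in which Acta2 was at -1.94, Synm at -1.03 was level with the median member and Smtn at -0.95 was slightly above it, so in that library their lower values were no larger than those of the muscle genes at large. The ratio of Synpo2 to Des in FPKM was 0.389, 0.351 and 0.474 in f/f replicates 1, 2 and 3 and 0.699, 0.148 and 0.166 in d/d replicates 1, 2 and 3. The d/d libraries thus stood on either side of the f/f range.

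**Figure D3:**
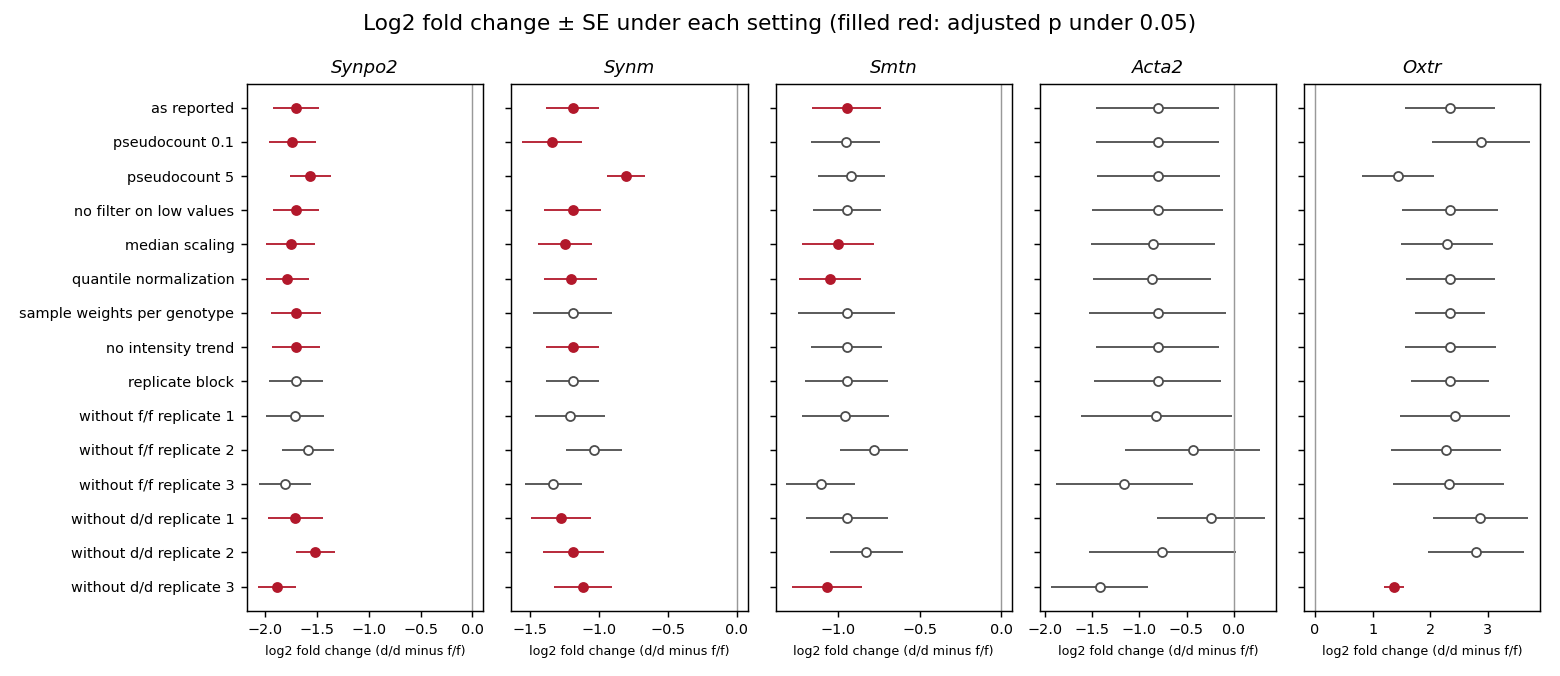
Log2 fold change (d/d minus f/f, log2(FPKM + 1) scale except where the pseudocount is changed) with its SE under each of 15 settings, 1 panel per gene, filled where the limma adjusted p was under 0.05. Synpo2, Synm and Smtn stay below 0 and Oxtr above 0 in every setting shown, while Acta2 ranges from -1.42 to -0.24 and is never called.

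Beyond the 35 genes, 8 lists of other smooth muscle genes held 122 tested genes, of which 9 were lower in d/d (7.38%, beside 3.81% of all genes) and 0 were higher. At an unadjusted p under 0.05 the count was 42 (34.4%, beside 26.7% of all genes). Their median log2 fold change was -0.16, beside 0.02 over all genes. With f/f replicate 1, 2 or 3 left out, 0, 0 and 2 were lower, beside 0, 30 and 111 of all genes called, and 2 with the replicate block, beside 100 of all genes. With d/d replicate 1, 2 or 3 left out, 11, 12 and 11 were lower and 2, 2 and 1 higher, beside 1319, 1367 and 1005 of all genes called.

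Signals that tune contraction held the largest log2 fold changes among these 9 genes. In the list of contractile receptors and Gq signalling, 2 of 11 were lower. Rgs2, which encodes a GTPase activator that shortens Gq signals, read 257, 234 and 193 FPKM across the f/f libraries against 35.3, 51.1 and 32.5 across the d/d libraries, with no overlap (log2 fold change -2.51, limma adjusted p = 0.00644). Ednrb, an endothelin receptor gene, read 21.4, 19.7 and 15.3 FPKM across the f/f libraries against 2.33, 4.51 and 2.24 across the d/d libraries (log2 fold change -2.33, adjusted p = 0.0109). All d/d values of both genes were well under the f/f range, and neither is restricted to muscle. Ptger3, a prostaglandin E receptor gene, was at 20.2 ± 5.79 and 7.60 ± 4.94 FPKM and did not pass (adjusted p = 0.0938).

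Of 21 channel and pump genes, 3 were lower. These were Cacna2d1, an auxiliary subunit gene of the voltage-gated calcium channel (log2 fold change -0.91, limma adjusted p = 0.0204), the calcium-activated chloride channel gene Ano1 (-1.93, adjusted p = 0.0271) and the plasma membrane calcium pump gene Atp2b4 (-1.11, adjusted p = 0.0278). Of 11 relaxing genes, Gucy1b1, a subunit gene of the nitric oxide receptor guanylate cyclase, was lower, from 7.46 ± 0.871 to 3.26 ± 0.491 FPKM (adjusted p = 0.0262). Of 5 caveola genes Cavin2 was lower (-0.97, adjusted p = 0.0388). Of 25 other genes of the contractile apparatus, Cnn3, the acidic calponin gene, and Svil, the supervillin gene, were lower (-1.71 and -0.54, adjusted p = 0.0329 and 0.0475).

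No gene passed by limma among the 17 cofactors and modifiers of serum response factor or the 19 costamere and focal adhesion genes, of which 4 and 7 had an unadjusted p under 0.05. That depended on the setting: 2 cofactors were lower with median scaling and 2 with quantile normalization, and 1 with sample weights. Without d/d replicate 1 or 2, 1 cofactor was lower and 1 higher, and 1 costamere gene was lower with quantile normalization and without d/d replicate 2. Hey2, which encodes a transcriptional repressor downstream of Notch, read 4.94, 4.95 and 4.17 FPKM across the f/f libraries against 2.85, 1.67 and 1.25 across the d/d libraries. Mef2a, the gene of a muscle transcription factor related to serum response factor, read 48.9, 42.5 and 42.6 FPKM across the f/f libraries against 20.6, 31.3 and 16.1 across the d/d libraries. All d/d values of both were lower, and neither passed (log2 fold change -0.99 for each, limma adjusted p = 0.0576 and 0.0612). The myocardin-related factor gene Mrtfa read 10.8, 10.9 and 10.7 FPKM across the f/f libraries against 14.8, 17.6 and 13.7 across the d/d libraries. All d/d values were higher, and the difference did not pass (limma adjusted p = 0.0921).

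**Figure D4:**
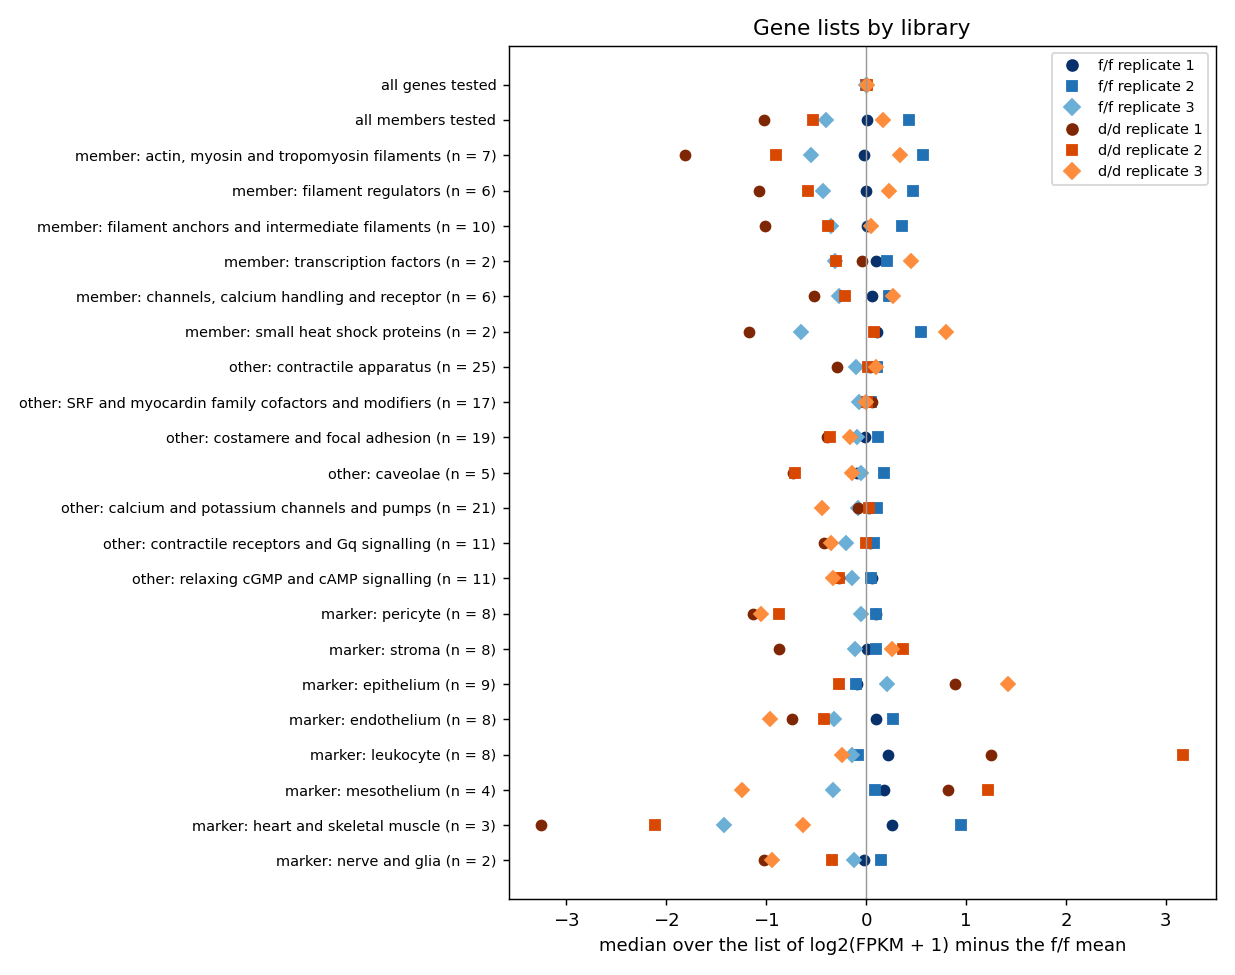
Median over each gene list shown of the log2(FPKM + 1) value minus the f/f mean, 1 point per library, with the number of tested genes of each list in brackets. All genes lie near 0, the filament list spreads from -1.82 in d/d replicate 1 to 0.57 in f/f replicate 2, and pericyte markers lie lower in all 3 d/d libraries.

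Markers of other cells of the uterus were measured beside the muscle genes. Pericytes, the contractile cells of small vessels, can share some genes with muscle, such as Acta2 and Tagln. Of 8 pericyte markers 5 were lower and 0 higher, among them Rgs5, which read 117, 105 and 131 FPKM across the f/f libraries against 23.4, 38.4 and 18.3 across the d/d libraries (log2 fold change -2.16, limma adjusted p = 0.0150), Ndufa4l2, Notch3 and Higd1b. With f/f replicate 1, 2 or 3 left out none of the 5 passed, where 0, 30 and 111 of all 12979 genes did. The sum of the pericyte list was 278 to 300 FPKM in f/f and 97.7 to 148 in d/d libraries. Endothelial markers had 1 of 8 lower, Cdh5 (log2 fold change -1.32, limma adjusted p = 0.0343), and sums of 420 to 617 and 250 to 414 FPKM. Of the endothelial log2 fold changes, 7 were negative and 1 positive. In each of these lists 6 of 8 had an unadjusted p under 0.05, beside 26.7% of all genes. The sums of both lists were lower in all d/d libraries, d/d replicate 3 included, though the endothelial ones nearly met at 420 and 414. The sum of the filament genes overlapped, at 3048 to 6822 in f/f and 1554 to 5897 in d/d. No marker of either list was at 0 in all libraries.

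Stroma markers had 0 of 8 called, with sums of 3086 to 3547 FPKM in f/f and 1971 to 4700 in d/d, and 2 of them had an unadjusted p under 0.05. Epithelial markers had 2 of 9 higher, Krt7 and Epcam (log2 fold changes 2.61 and 1.54, limma adjusted p = 0.0363 and 0.0452), beside 3.49% of all genes. The sums of the list were 1240 to 1444 and 870 to 2948 FPKM. Of the 9 log2 fold changes, 7 were positive and 2 negative. Cldn3 was lower in all d/d libraries (433 to 483 against 76.3 to 390 FPKM, log2 fold change -1.15) and did not pass (limma adjusted p = 0.266). The epithelial sum was highest in d/d replicate 3, the library in which Oxtr was highest. Leukocyte markers had 1 of 8 higher, Cd68 (limma adjusted p = 0.0310), with sums of 448 to 547 and 473 to 6401 FPKM. The sum of 473 FPKM, in d/d replicate 3, lay within the f/f range. Of the 8 log2 fold changes, 7 were positive and 1 negative. The negative one was that of Nkg7, lower in all d/d libraries (22.7 to 33.4 against 3.17 to 19.4 FPKM). Its log2 fold change of -1.46 did not pass (limma adjusted p = 0.164). Of 8 genes listed as mesothelial markers 4 were tested and 1 was lower, Wt1, with sums of 151 to 215 and 52.4 to 362 FPKM. Most of these sums came from Wt1 and Cpe, at 56.8 to 75.3 and 93.1 to 145 FPKM in f/f. Whether those 2 genes stand for mesothelium here was not tested. The 3 tested genes besides Wt1 had positive log2 fold changes that did not pass. Among them Upk3b was higher in all d/d libraries (0.153 to 0.650 against 1.15 to 7.47 FPKM, log2 fold change 1.57, limma adjusted p = 0.108). Nerve and glia markers had 2 tested and 0 called, both of them with an unadjusted p under 0.05, and sums of 12.9 to 18.1 and 6.12 to 13.4 FPKM. The part of these cells in the results on muscle genes was not tested.

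Markers of heart and skeletal muscle had 3 of 12 genes tested and 0 called, 2 of them with an unadjusted p under 0.05. Myh4 was listed at 0 in all 6 libraries, and Myh1, Myh6, Myh7, Mb, Ttn and Myl1 were under 1 FPKM in all of them. The tested genes Acta1, the skeletal alpha-actin gene, and Tnnt2, a cardiac troponin T gene, were high in f/f replicate 2 and low in d/d replicates 1 and 2, like the smooth muscle actins. Acta1 read 69.6, 142 and 19.5 FPKM across the f/f libraries against 4.61, 3.71 and 67.6 across the d/d libraries. Its product is a near copy of those of Acta2 and Actg2. Of Acta2 and Actg2, 0.353% and 0% of the 50-base stretches stand in other genes, and the read length was not given in the sources used here.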

How the data were processed

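RNA of whole uterus was sequenced in 6 libraries, 3 per labelled genotype. Per the labels' protocols, TRIzol was used for extraction and a TruSeq kit for the libraries. HISAT2 2.2.1 and Cufflinks 2.2.1 are named per the submitters' processing notes, which list both mm9 and mm10. Annotation, options and strand use: not given in the sources used here. The authors deposited 1 table per library, whose values were taken as FPKM because they are decimals with unequal totals and Cufflinks writes FPKM. The depth is unknown, and no counting interval can be given.

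Of rows with the same symbol the one with the highest mean was kept (36 removed). Genes at 1 FPKM or more in at least 3 libraries were analysed on the log2(FPKM + 1) scale in R 4.3.3 by limma 3.58.1 (genotype as the only term, intensity trend, two-sided, Benjamini-Hochberg over 12979 genes, threshold 0.05). The test was run on simulated data in which each gene kept its own spread in each genotype, as measured in 3 libraries. It recovered the fold changes put in, but the false share of its calls was well above the nominal one in every draw. The calls as a whole are thus less sure than the threshold states, and those near it are weak. Single genes also got an exact two-sided permutation test. The 14 alternatives changed the pseudocount, filter, scaling, weights, trend, block or libraries. Leaving out a library kept the genes tested.

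The members and lists were chosen with earlier results of these data known. Any member could be named, and from each other list the first 4 genes by unadjusted p, plus Mettl3. Of the 8 lists of other smooth muscle genes, 1 enters the joint counts and is not reported here by itself. Heart and skeletal muscle markers under the filter are named outside this rule. Coordinates and overlaps are from GENCODE M21 (GRCm38), promoters from RefSeq (GRCm38.p6). Shared 50-base stretches were counted in GENCODE transcripts.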

Additional observations from a re-analysis of the deposited data

How the results depend on the processing

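Over 14 alternatives, 26 of 33 tested members kept the sign of their log2 fold change and 7 did not, none of which was called in any setting. Mrvi1 had -0.017 with median scaling and -0.0495 with quantile normalization. With 1 library left out, the values of these 7 ranged from -0.16 to 0.27 for Mrvi1, -0.070 to 0.074 for Actn1, -0.56 to 0.46 for Pdlim7, -0.090 to 0.42 for Lmod1, -0.29 to 0.42 for Kcnmb1, -1.03 to 0.21 for Myl9 and -0.54 to 0.015 for Cald1. The number of members called was 1 with sample weights per genotype, and with 1 library left out it ranged from 0 to 6. It was 0 by limma without f/f replicate 1, 2 or 3, where 4, 3 and 7 had an unadjusted p under 0.05. Of all genes, 0 to 1367 were called with 1 library left out, and of the other listed smooth muscle genes 0 to 14. The cause was not tested. Same-numbered libraries did not deviate together (correlations over genes of -0.020, 0.020 and -0.021), and no f/f library correlated best with its own number. Libraries of unlike number had correlations of -0.14 to 0.12. With 3 libraries per genotype these values cannot decide whether the numbers pair the samples. With the replicate block 100 genes, 0 members and 2 other listed genes were called by limma, and 6 members had an unadjusted p under 0.05. No read numbers are held in the tables, so the precision of genes near 1 FPKM, such as Myocd, Ldb3 and, in f/f, Oxtr, is not known.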
